A study of Mus musculus with 5 samples.

Results

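The genes carried by mitochondrial DNA were examined in B16F10, a pigmented mouse melanoma cell line. They were taken as the rows of the deposited gene table whose Ensembl identifier maps, in the GENCODE M21 annotation of GRCm38, to a symbol starting with mt-. This gave 37 of 54100 genes, namely 13 mRNAs, 2 rRNAs and 22 tRNAs, all on chromosome M. There were 5 groups with 1 library each: conventional 3D culture (conventional culture for short), dynamic suspension culture (dynamic culture) and shControl, all with the genotype tag WT, and HIF-1α knockdown and HIF-1α overexpression, with the genotype tags knockdown and overexpression. The treatment tag reads NO for every sample, and 1 protocol is given for all 5: cells were shaken at 60 to 80 rpm without serum and kept for 7 to 10 days. What set the cultures apart is therefore known from their titles alone. The labels name no construct, clone or shRNA sequence for the last 3 groups. Each library pooled 3 repeats before sequencing, so no difference has a replicate check. Every comparison is between 2 libraries, and no test across conditions was run.

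Values of the whole series frame what follows. The deposited values summed to 61267892, 61014260 and 59493240 in conventional culture, dynamic culture and shControl, taken as estimated counts, and to 14803426 and 15393189 under the knockdown and overexpression labels, taken as plain counts. The value 4 was more frequent than 3 in each of the former columns and less frequent in both of the latter. Levels are given as CPM, depth-normalised values after TMM scaling, and 95% intervals cover counting error only. Hif1a, the targeted gene, stood at 542 CPM in conventional culture, 390.5 in dynamic culture, 61.3 in shControl, and 95.1 and 384 CPM under the knockdown and overexpression labels. It was thus higher under the overexpression label than under the knockdown label. It was lowest in shControl, below the library labelled knockdown, and the library labelled overexpression lay below conventional and dynamic culture. Comparisons of either labelled library with shControl or a culture also cross the kind of column, which cannot be told apart from the group. All 8 melanocyte lineage markers were above 1 CPM in all 5 libraries. The 3 erythroid markers were at 0 throughout, and of 5 immune markers 2 (Cd79a and Lyz2) passed 1 CPM in conventional culture and 0 elsewhere. Of 4 epithelial markers 0 passed 1 CPM in any library, and of 5 endothelial markers 1, Vwf, passed it in each. Vwf was at 10.7, 1.04, 3.08, 2.17 and 4.88 CPM in conventional culture, dynamic culture, shControl and the libraries labelled knockdown and overexpression. Of 6 fibroblast markers 6, 5, 5, 3 and 2 passed 1 CPM in conventional culture, dynamic culture, shControl and the libraries labelled knockdown and overexpression, with summed levels of 119, 26.0, 32.1, 11.0 and 3.22 CPM.

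Mitochondrial DNA is a small circle transcribed from both strands as long precursors, which are cut into single RNAs largely at the tRNAs that lie between the larger genes. Its mRNAs encode core subunits of respiratory complexes I, III and IV and of the ATP synthase, complex V, and its rRNAs build the mitochondrial ribosome. All other subunits, and the polymerase and factors that copy and read the circle, are encoded in the nucleus. Of the mRNAs here, 12 lie on the plus strand and only mt-Nd6 on the minus strand. Of the tRNA genes, 14 lie on the plus and 8 on the minus strand.

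Sequence bears on how far these values can be read, since pieces of mitochondrial DNA also lie in nuclear chromosomes. A BLASTN search of the 37 genes against annotated transcripts found 16 nuclear copies with at least 90% identity over at least 100 aligned bases. For 7 of these, all on chromosome 1, identity was at least 99%. They are Gm29216 (99.8% identical to the last 483 bases of mt-Co1), Gm28661 (mt-Co2), Gm10925 (mt-Atp6), Gm28437 (mt-Co3), Gm28438 (99.7%, mt-Nd3), Gm10222 (mt-Nd4l) and Gm28439 (the first 876 bases of mt-Nd4), and the other 5 were 100% identical over the aligned bases. They lie in a row on the minus strand of chromosome 1, from 24611535 to 24616188, spaced as the genes on chromosome M from 6390 to 11042 apart from 1 base. This stretch of 4653 bases holds 6 mRNA genes whole, mt-Atp8 among them, 2 in part (mt-Co1 and mt-Nd4) and 5 tRNA genes. mt-Atp8 and these tRNA genes had no match of their own within the search limits, so their place in the copy is inferred from the spacing. At 59 to 75 bases, all tRNA genes are shorter than the 100 aligned bases required, so no copy of them could be found. The 5 mRNA genes wholly outside it are mt-Nd1, mt-Nd2, mt-Nd5, mt-Nd6 and mt-Cytb, and so are both rRNA genes. These 5 mRNAs are followed as a group, chosen after the data were seen. Only annotated transcripts were searched, so unannotated copies were not looked for. Hits on a single nuclear chromosome, which holds none of the 16 copies, were dropped, so any copies there are not counted.

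The following pairs, GENCODE M21 transcript sequences of GRCm38 written 5′ to 3′, show how a gene compares with its chromosome 1 copy and with less similar copies. Capitals mark the bases that differ. Within the aligned stretch, mt-Co1 and Gm29216 differed by A1066T and mt-Nd3 and Gm28438 by T3C, with positions counted from 1 at the first base of the mitochondrial gene and its base given first. These were the only substitutions in the 7 alignments. The windows of mt-Co1 against Gm13340 on chromosome 2 and of mt-Cytb against Gm11410 on chromosome 4 hold 2 and 6 differences in 81 bases. The short windows of the chromosome 1 copy were placed at its single substitutions, so they do not show its density of differences, which over whole alignments was 1 in 483 bases for Gm29216 and 37 in 1545 for Gm13340.
mt-Co1, chrM:6390-6433, plus strand: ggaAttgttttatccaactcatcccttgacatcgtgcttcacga
Gm29216, chr1:24616145-24616188, minus strand: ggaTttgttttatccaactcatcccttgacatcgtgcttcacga
mt-Nd3, chrM:9459-9501, plus strand: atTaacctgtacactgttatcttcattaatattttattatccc
Gm28438, chr1:24613077-24613119, minus strand: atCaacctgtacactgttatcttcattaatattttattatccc
mt-Co1, chrM:6353-6433, plus strand: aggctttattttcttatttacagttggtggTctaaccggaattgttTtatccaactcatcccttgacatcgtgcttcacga
Gm13340, chr2:22588542-22588622, minus strand: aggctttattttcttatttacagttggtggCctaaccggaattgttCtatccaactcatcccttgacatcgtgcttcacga
mt-Cytb, chrM:14676-14756, plus strand: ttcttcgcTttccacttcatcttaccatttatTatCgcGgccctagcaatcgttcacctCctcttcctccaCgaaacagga
Gm11410, chr4:80004520-80004600, plus strand: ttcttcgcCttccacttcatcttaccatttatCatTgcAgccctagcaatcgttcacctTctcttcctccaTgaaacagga

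Genes on the circle also overlap each other. mt-Atp8 and mt-Atp6, which encode both mitochondrial subunits of ATP synthase, share 43 bases, shown in capitals at the end of mt-Atp8. mt-Nd4l and mt-Nd4, both of complex I, share 7 bases, in capitals in the second sequence. At 204 bases, mt-Atp8 is also the shortest mRNA gene here, shorter than the library insert of about 300 bp.
mt-Atp8, chrM:7766-7969, plus strand: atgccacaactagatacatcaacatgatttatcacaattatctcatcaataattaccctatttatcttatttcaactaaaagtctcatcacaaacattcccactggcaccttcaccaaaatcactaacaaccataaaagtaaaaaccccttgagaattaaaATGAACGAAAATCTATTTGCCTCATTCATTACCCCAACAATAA
mt-Nd4l and mt-Nd4, chrM:10134-10206, plus strand: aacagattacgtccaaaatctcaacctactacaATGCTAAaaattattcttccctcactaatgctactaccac

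In the estimated counts, the whole-gene chromosome 1 copies carried values near those of their mitochondrial genes, except that of mt-Nd3 in dynamic culture. In conventional culture, dynamic culture and shControl, Gm10222 stood at 101%, 101% and 101% of mt-Nd4l, Gm10925 at 106%, 106% and 105% of mt-Atp6, and Gm28661 at 96.9%, 96.8% and 97.6% of mt-Co2. Gm28438 stood at 106%, 125% and 102% of mt-Nd3. For mt-Co3, Gm28437 stood at 6640.3, 2295 and 1801 CPM beside 6648, 2295 and 1804 CPM for the gene itself. Gm29216, which matches 31.3% of the length of mt-Co1, stood at 5.94%, 7.51% and 9.86% of it, and Gm28439 at 40.7%, 37.3% and 28.9% of mt-Nd4. In the plain counts the whole-gene copies and their genes were both low. mt-Co3 was at 24.5 and 54.1 CPM and Gm28437 at 24.9 and 44.6 CPM, the library labelled knockdown first. Of the part copies and their genes only the copies were low. Gm29216 stood at 24.7 and 140 CPM beside 12638 and 34636 CPM for mt-Co1. Gm28439 stood at 16.6 and 24.4 CPM beside 1714 and 2013 CPM for mt-Nd4. mt-Nd3 was even below its copy there, at 3.08 and 2.20 CPM, with Gm28438 at 31.4 and 28.6 CPM. The less similar copies took little in either kind of column. The highest, Gm13340, a copy of the whole of mt-Co1 at 97.6% identity, was at 170.5, 44.8, 18.2, 9.32 and 38.0 CPM, at most 0.196% of mt-Co1. Gm13341, a copy of mt-Co2, was at 35.3, 15.4, 18.4, 1.58 and 3.87 CPM in the same order of libraries. None of the other 7 reached 10 CPM in any of the 5 libraries.

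**Figure D1:**
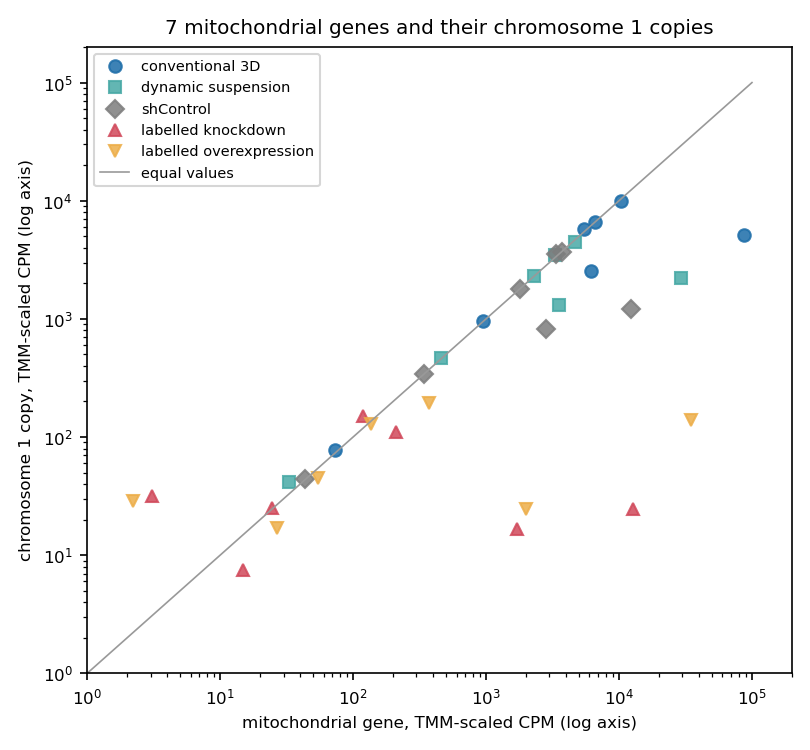
TMM-scaled CPM of 7 mitochondrial genes (horizontal, log axis) against their chromosome 1 copies (vertical, log axis), 1 point per gene and library, with a line of equal values. The points of conventional culture, dynamic culture and shControl follow the line except for mt-Co1 and mt-Nd4, of which the copy holds only a part, and the points of the libraries labelled knockdown and overexpression lie lower on the vertical axis for each gene.

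Among the estimated counts, conventional culture had the most mitochondrially encoded RNA. All 37 genes together took 13.2% of its values, against 6.17% in dynamic culture and 3.93% in shControl. Among the plain counts the share was 2.99% under the knockdown label and 5.60% under the overexpression label. The 95% Wilson intervals, which cover counting error only, were narrow (for the library labelled overexpression, 5.59 to 5.61%). The 13 mRNAs made up nearly all of it, at 12.7%, 5.99%, 3.91%, 2.88% and 5.35% in the same order of libraries.

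The summed level of the 5 mRNAs outside the chromosome 1 copy was 27877 CPM in conventional culture and 15592, 12152, 13282 and 11749 CPM in dynamic culture, shControl and the libraries labelled knockdown and overexpression. Among the estimated counts, conventional culture thus stood above dynamic culture and shControl. Both plain-count libraries lay close together in this sum. The 8 mRNAs wholly or partly inside the copy summed to 118897, 44853, 25614, 14725 and 37244 CPM in the same order.

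**Figure D2:**
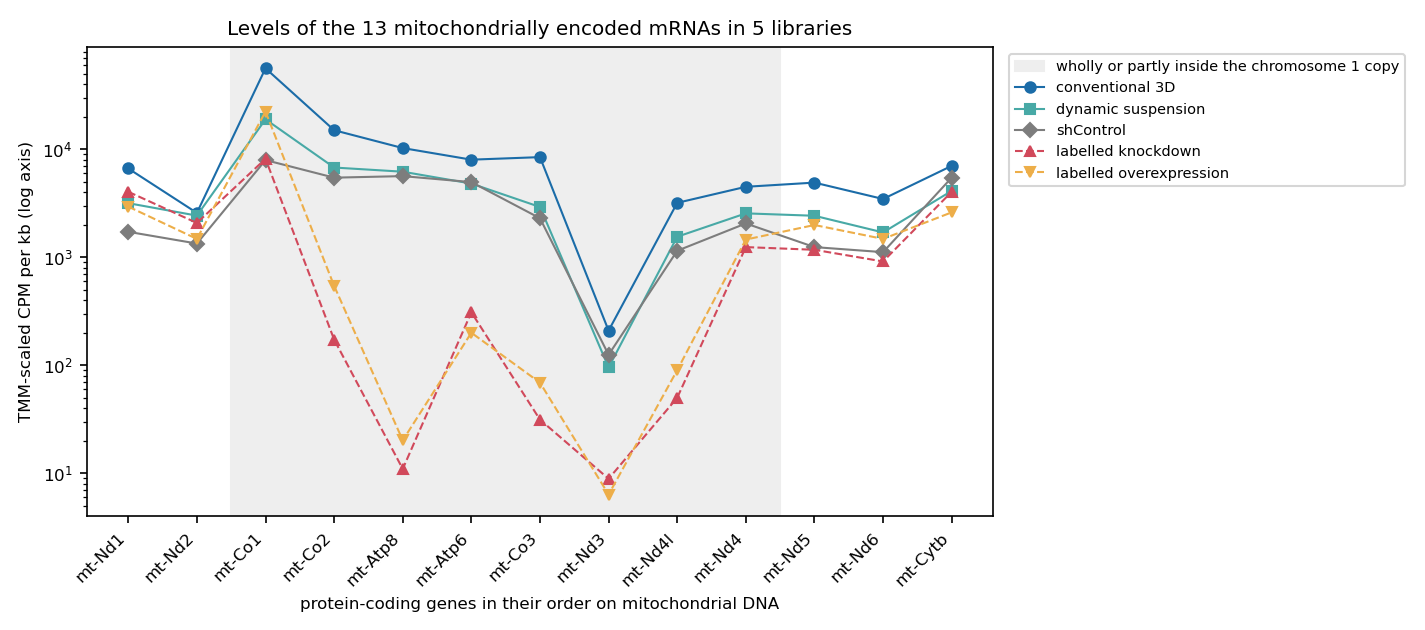
TMM-scaled CPM per kb of gene (vertical, log axis) for the 13 mitochondrially encoded mRNAs in their order on the circle (horizontal), 1 line per library, solid for estimated and dashed for plain counts, with the genes wholly or partly inside the chromosome 1 copy shaded. mt-Co1 is highest and mt-Nd3 lowest in all 5 libraries, and from mt-Co2 to mt-Nd4l the dashed lines drop far below the solid ones.

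Per kb of gene, mt-Co1, the catalytic core of complex IV, was the highest mRNA in all 5 libraries, at 56411, 18995, 7963, 8179.9 and 22418 CPM per kb. mt-Nd3, a small complex I subunit, was the lowest, at 209, 95.3 and 125 CPM per kb in the estimated and 8.86 and 6.33 in the plain counts. Among the 5 mRNAs outside the copy the range per kb was narrower, from 2579 for mt-Nd2 to 7038 for mt-Cytb in conventional culture and from 1116 for mt-Nd6 to 5475 for mt-Cytb in shControl. mt-Cytb, the only mitochondrially encoded subunit of complex III, was the highest of these 5 in 4 libraries (level with mt-Nd1 in the library labelled knockdown, at 4049 and 4048 CPM per kb), and mt-Nd1 was the highest in the library labelled overexpression.

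Between the culture methods, the mitochondrially encoded mRNAs were lower in dynamic culture than in conventional culture. All 13 log2 ratios were below 0 (median -1.03, against -0.021 over all 12875 genes tested), and 8 of the 13 were lower and 0 higher beyond 2-fold. Beyond 2-fold here means a log2 ratio of at least 1 in size, a mean of at least 1 CPM and a counting interval without 0; over all genes 7.64% were lower and 6.44% higher by this rule. Several members lie near that limit. Scaling by the total of all values, in place of TMM, moved every log2 ratio up by 0.19 and left 2 of the 13 beyond 2-fold, and scaling by the total outside mitochondrial genes left 5.

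Of the mRNAs, mt-Co1 and mt-Co3 of complex IV differed most between both cultures. mt-Co1 was at 29348 CPM in dynamic culture and 87156 in conventional culture (log2 ratio -1.57). mt-Co3, another core subunit of that complex, was at 2295 against 6648 CPM (-1.53, 95% counting interval -1.54 to -1.53), and mt-Co2, which takes electrons from cytochrome c, at 4646 against 10298 CPM (-1.15, -1.16 to -1.14). Both members of ATP synthase differed less: mt-Atp6, part of its proton channel, was at 3284 against 5469 CPM (-0.74) and mt-Atp8 at 1267 against 2099 CPM (-0.73).

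Complex I genes, whose products form the membrane arm of the enzyme, mostly lay near a log2 ratio of -1. mt-Nd1 was at 3037 against 6367 CPM (-1.07, -1.08 to -1.06), mt-Nd5 at 4426 against 8979.6 CPM (-1.02, -1.03 to -1.01) and mt-Nd6 at 883 against 1801 CPM (-1.03, -1.04 to -1.01). mt-Nd4 at 3519 against 6204 CPM (-0.82), mt-Nd4l at 461 against 949 CPM (-1.04) and mt-Nd3 at 33.2 against 72.8 CPM (-1.13) were in the same range. mt-Nd2 stood out at 2526 against 2677 CPM (-0.083, -0.094 to -0.073), and its direction turned under scaling by the total of all values (0.11). mt-Cytb was at 4719 against 8052 CPM (-0.77). Summed over the 5 mRNAs outside the chromosome 1 copy, the log2 ratio was -0.84, and over all 13 it was -1.28. The summed fibroblast markers were lower in dynamic culture too (26.0 against 119 CPM, with 0 of the 6 at 0 in either library), and their part in the result was not tested.

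**Figure D3:**
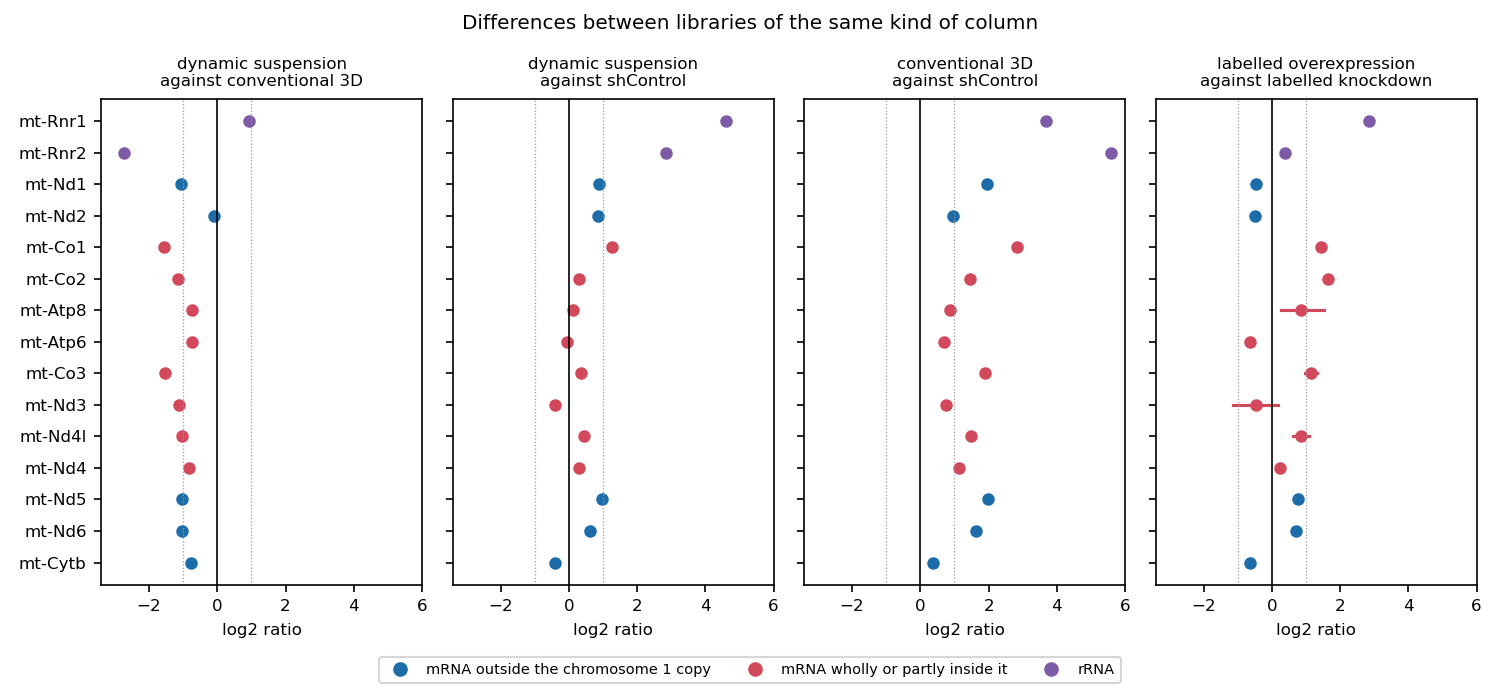
Log2 ratios of TMM-scaled CPM (horizontal) for the 13 mRNAs and 2 rRNAs in gene order (vertical), in the 4 comparisons within a kind of column. Points are ratios, bars are 95% counting intervals (often narrower than the point) and dotted lines mark 2-fold; all 13 mRNAs lie left of 0 in the first panel and right of 0 in the third.

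Against shControl, conventional culture was higher for all 13 mRNAs (median log2 ratio 1.46, against -0.0083 over all genes), 8 of them beyond 2-fold, where 14% of all genes tested were. shControl enters this comparison and the one of dynamic culture, so the ratios of both are not independent. mt-Co1 was at 87156 against 12302 CPM (log2 ratio 2.82, 2.82 to 2.83), mt-Nd5 at 8979.6 against 2268 CPM (1.99) and mt-Nd1 at 6367 against 1649 CPM (1.95). mt-Cytb differed least, at 8052 against 6263 CPM (0.36, 0.36 to 0.37). The ratios of single mRNAs from the same circle thus ranged from 0.36 to 2.82.

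Dynamic culture lay closer to shControl. 10 of the 13 mRNAs were above and 3 below (median log2 ratio 0.35, against -0.025 over all genes), and 1, mt-Co1, was higher beyond 2-fold (1.25, 1.25 to 1.26), where 13.8% of all genes were. mt-Nd5 (0.96), mt-Nd1 (0.88), mt-Nd2 (0.86, with 1392 CPM in shControl) and mt-Nd6 (0.61, with 579 CPM in shControl) followed. The 3 below were mt-Cytb (-0.41), mt-Nd3 (-0.39) and mt-Atp6 (-0.045). The mitochondrially encoded part of complex V was nearly level, with mt-Atp6 and mt-Atp8 summing to 4552 CPM in dynamic culture and 4542 in shControl. The nuclear-encoded subunits of complex V were lower in dynamic culture (median log2 ratio -0.62, 15 of 15 below 0).

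Between both plain-count libraries, the one labelled overexpression had more mt-Co1 and less mt-Cytb, mt-Nd1 and mt-Nd2 than the one labelled knockdown. mt-Co1 was at 34636 against 12638 CPM (log2 ratio 1.45, 1.45 to 1.46). mt-Cytb was at 2985 against 4632 CPM (-0.63, -0.65 to -0.62), mt-Nd2 at 1537 against 2160.0 CPM (-0.49) and mt-Nd1 at 2823 against 3874 CPM (-0.46). mt-Nd5, at 3634 against 2142 CPM (0.76), and mt-Nd6, at 769 against 475 CPM (0.69), which overlap by 14 bases on opposite strands, were higher. Of the 13 mRNAs, 3 were higher beyond 2-fold (mt-Co1, mt-Co2 and mt-Co3, all of complex IV) and 0 lower, against 17.7% and 14.9% of all genes. mt-Co2 and mt-Co3 lie inside the chromosome 1 copy and were low in both libraries, at 372 against 118 and 54.1 against 24.5 CPM. Also low there were mt-Atp6, at 136 against 211 CPM (-0.63), mt-Nd4l, at 26.7 against 14.8 CPM (0.85), and mt-Nd3, at 37 against 47 counts (-0.48, -1.15 to 0.17), a difference not detectable at this depth.

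The sign of the summary depends on which mRNAs are counted here. The median log2 ratio was 0.69 over the 13 (over all genes -0.026) and -0.46 over the 5 outside the copy. The summed level of the 13 gave 0.81 and that of the 5 gave -0.18. mt-Co1 alone took 3.78% of all values in the library labelled overexpression and 1.30% in the library labelled knockdown. Its last 483 bases lie in the copy, and the deposited values do not separate them from the rest of the gene.

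Against shControl, the libraries labelled knockdown and overexpression differ in the kind of column as well as in the group, and these cannot be told apart. The 6 mRNAs wholly inside the chromosome 1 copy stood far lower in both. mt-Atp8 was at 2.23 and 4.11 CPM, from 34 and 69 counts, in the libraries labelled knockdown and overexpression and at 1153 CPM in shControl. mt-Co3 was at 1804, mt-Co2 at 3742, mt-Atp6 at 3388, mt-Nd4l at 342 and mt-Nd3 at 43.5 CPM in shControl, and their log2 ratios in the library labelled knockdown ran from -6.20 for mt-Co3 to -3.80 for mt-Nd3. In the library labelled knockdown no other mRNA was lower beyond 2-fold (15.7% of all genes tested were), and mt-Nd1 was higher (1.23; 8.05% of all genes). In the library labelled overexpression the same 6 and mt-Cytb (-1.07) were lower (20.1% of all genes) and mt-Co1 (1.49) higher (16.1%).

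Summed, the 5 mRNAs outside the copy had log2 ratios of 0.13 under the knockdown label and -0.049 under the overexpression label. Single genes went both ways: in the library labelled knockdown mt-Nd1 had 1.23, mt-Nd2 0.63, mt-Nd5 -0.083, mt-Nd6 -0.29 and mt-Cytb -0.44, and in the library labelled overexpression mt-Nd1 had 0.78, mt-Nd5 0.68, mt-Nd6 0.41, mt-Nd2 0.14 and mt-Cytb -1.07. Both rRNAs, also outside the copy, were higher than in shControl, from 2.04 for mt-Rnr1 under the knockdown label to 4.88 for mt-Rnr1 under the overexpression label. mt-Nd4, of which 876 of 1378 bases lie in the copy, was at 1714 and 2013 CPM against 2838 CPM.

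The make-up of the mitochondrial mRNA pool does not depend on how libraries are scaled. mt-Co1 made up 59.4%, 48.6% and 32.6% of the 13 mRNAs in conventional culture, dynamic culture and shControl, against 45.1% and 70.7% under the knockdown and overexpression labels. mt-Cytb took 5.49%, 7.81%, 16.6%, 16.5% and 6.09% in that order, shares of a total that mt-Co1 dominates, while its own level was highest in conventional culture (8052 CPM, against 6263 CPM in shControl). The ratio of mt-Co1 to mt-Cytb values was 10.8, 6.22, 1.96, 2.73 and 11.6. It was thus highest in the library labelled overexpression and in conventional culture and lowest in shControl and the library labelled knockdown, in values that mix both kinds of column.

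**Figure D4:**
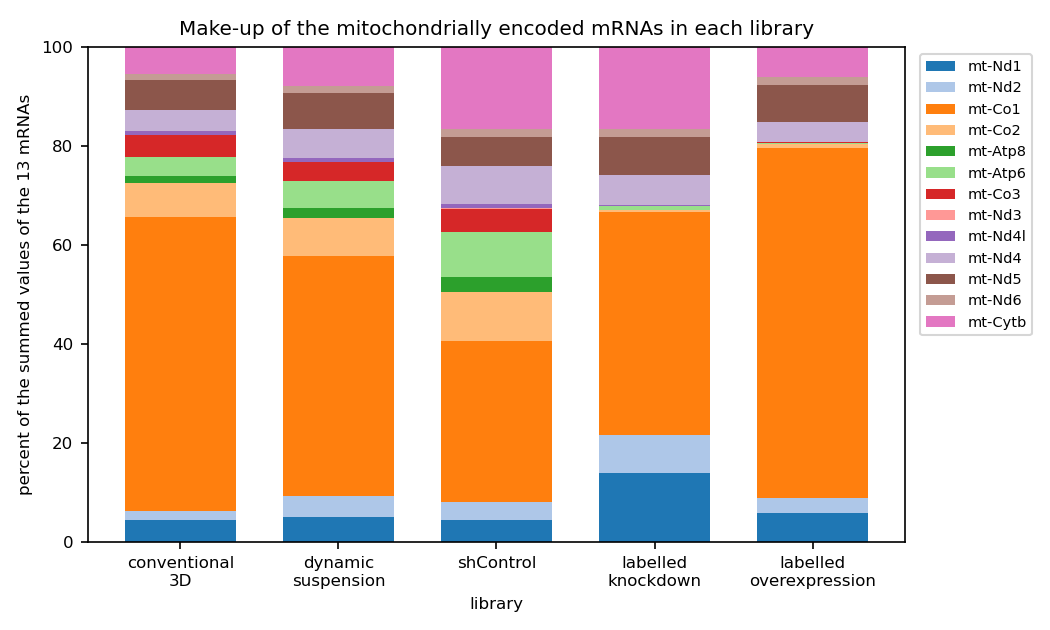
Percent of the summed values of the 13 mitochondrially encoded mRNAs (vertical) taken by each, stacked, in the 5 libraries (horizontal). mt-Co1 takes 32.6% in shControl and 70.7% in the library labelled overexpression, and mt-Co2 to mt-Nd4l are barely visible in both plain-count libraries.

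Within the 5 mRNAs outside the copy, mt-Cytb made up 51.5% in shControl and 28.9%, 30.3%, 34.9% and 25.4% in conventional culture, dynamic culture and the libraries labelled knockdown and overexpression. In the estimated counts mt-Nd5 took 32.2% and 28.4% in conventional and dynamic culture and 18.7% in shControl. In the plain counts mt-Nd5 took 30.9% under the overexpression label and 16.1% under the knockdown label. The antisense pair kept a steadier balance: the ratio of mt-Nd5, on the plus strand, to mt-Nd6, on the minus strand, was 4.99, 5.01, 3.91, 4.51 and 4.73 across the 5 libraries.

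Both rRNAs varied more than any mRNA outside the copy, and they were lowest in shControl. mt-Rnr1, the RNA of the small mitochondrial ribosomal subunit (chromosome M, 70 to 1024), was at 534, 1013, 41.9, 172 and 1235 CPM in conventional culture, dynamic culture, shControl and the libraries labelled knockdown and overexpression. mt-Rnr2, the RNA of the large subunit (1094 to 2675), was at 4011, 600.1, 83.0, 768 and 995 CPM in the same order. Together they amounted to 0.331% of the 13 mRNAs in shControl and to between 2.67% and 4.55% in the other 4 libraries. Over shControl the log2 ratio of mt-Rnr2 was 5.59 in conventional culture (5.56 to 5.64) and 2.85 in dynamic culture (2.81 to 2.90), and that of mt-Rnr1 3.67 and 4.59. The libraries were made by poly(A) selection, so these values cover the rRNA that this step retained, and whether its share differed between libraries was not tested.

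The rRNAs neighbour each other on the same strand, with mt-Tv between them. Both were higher than in shControl in the other 4 libraries, but between both cultures their directions were opposite. Dynamic culture had more mt-Rnr1 (0.92, 0.90 to 0.94) and less mt-Rnr2 (-2.74, -2.76 to -2.72) than conventional culture. The library labelled overexpression had more mt-Rnr1 than that labelled knockdown (2.84, 2.78 to 2.90) and less of a difference in mt-Rnr2 (0.37, 0.34 to 0.41). The ratio of mt-Rnr1 to mt-Rnr2 values was 0.133 in conventional culture, 0.224 in the library labelled knockdown, 0.505 in shControl, 1.24 in the library labelled overexpression and 1.69 in dynamic culture. Outside the nuclear chromosome whose hits were dropped, no annotated nuclear copy of either rRNA passed the search limits.

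The tRNA genes held few values, 0.0389% of the library at most. They are 59 to 75 bases long, shorter than a 150-base read, and which molecules their values come from was not tested. At least 1 CPM was reached by 13, 9, 7, 11 and 10 of the 22 in conventional culture, dynamic culture, shControl and the libraries labelled knockdown and overexpression. 5 were at 0 in the library labelled knockdown and 8 in that labelled overexpression, where a count of 0 allows up to 3 counts, or 0.197 and 0.179 CPM. None was at 0 in the other 3 libraries. The 5 tRNA genes printed here, with bases shared with a neighbour in capitals, are those that the next values turn on: the leucine tRNA before mt-Nd1, the antisense serine tRNA at the end of mt-Co1, and the run of 3 between mt-Nd4 and mt-Nd5.
mt-Tl1, chrM:2676-2750, plus strand: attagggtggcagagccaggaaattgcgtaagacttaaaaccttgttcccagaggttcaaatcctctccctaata
mt-Ts1, chrM:6870-6938, minus strand: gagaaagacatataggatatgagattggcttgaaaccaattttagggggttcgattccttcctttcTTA
mt-Th, chrM:11546-11612, plus strand: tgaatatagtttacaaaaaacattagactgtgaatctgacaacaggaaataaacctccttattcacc
mt-Ts2, chrM:11613-11671, plus strand: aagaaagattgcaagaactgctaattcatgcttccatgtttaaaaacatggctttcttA
mt-Tl2, chrM:11671-11741, plus strand: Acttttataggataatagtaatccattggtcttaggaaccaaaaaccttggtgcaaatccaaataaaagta

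mt-Ts1, a serine tRNA inside the chromosome 1 copy, was the highest tRNA gene in the estimated counts, at 271, 108 and 47.8 CPM in conventional culture, dynamic culture and shControl. It had 1 count in the library labelled knockdown and 0 in that labelled overexpression. The other 4 tRNA genes inside the copy, mt-Td, mt-Tk, mt-Tg and mt-Tr, were low throughout, between 0.0325 and 1.18 CPM in the estimated counts and at 0 to 2 counts in the plain counts. The reverse held for mt-Th, mt-Ts2 and mt-Tl2, the histidine, serine and leucine tRNAs that follow mt-Nd4. They stood at 5.91 and 3.45 CPM, 7.35 and 5.06 CPM and 7.22 and 5.89 CPM with the knockdown and overexpression labels, and between 0.0325 and 0.215 CPM in the estimated counts. Both patterns followed the kind of column and cannot be told apart from it.

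**Figure D5:**
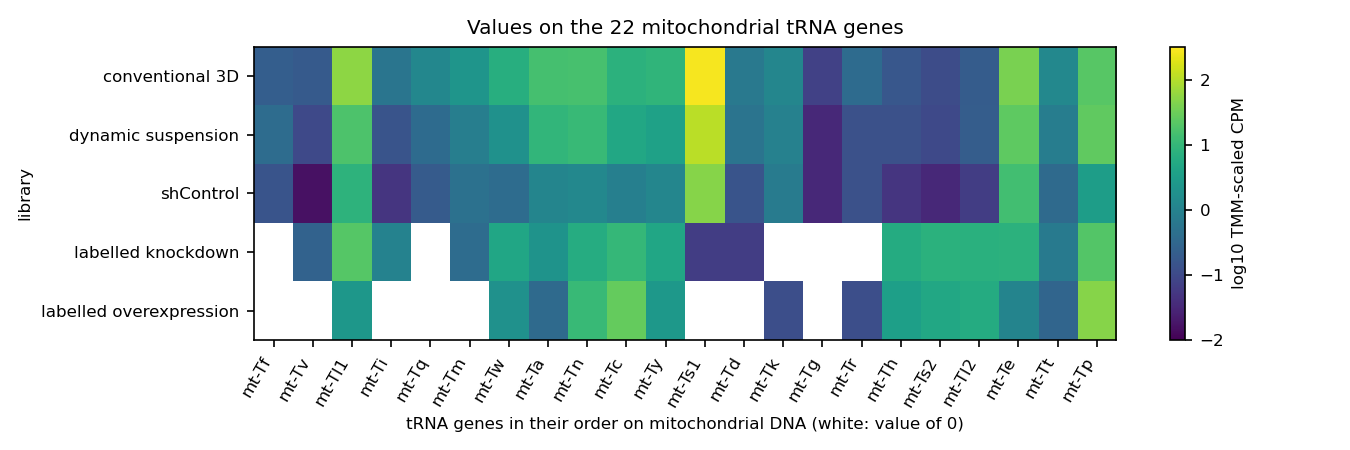
Log10 TMM-scaled CPM (colour) of the 22 mitochondrial tRNA genes in gene order (horizontal) in the 5 libraries (vertical), white where the value is 0. mt-Ts1 is high in the upper 3 libraries and at 1 and 0 counts in the lower 2, whereas mt-Th, mt-Ts2 and mt-Tl2 are high only in the lower 2.

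Outside the copy, mt-Tl1, mt-Tw (tryptophan), mt-Ty (tyrosine) and mt-Tm (methionine) were lower beyond 2-fold in dynamic than in conventional culture, and so was mt-Ts1 inside it (-1.33). mt-Tl1 was at 17.5 against 53.8 CPM (-1.62, -1.72 to -1.52). mt-Tp, the proline tRNA on the minus strand, was at 25.5 against 21.4 CPM (0.25). mt-Tm was at 0.844 against 2.18 CPM. Several tRNA genes, such as mt-Tm, mt-Tw and mt-Tc, reached the mean of 1 CPM in a comparison only through the library in which they were high, so no count of calls is given for tRNA genes and their levels are described. The 4 tRNA genes on the minus strand between mt-Nd2 and mt-Co1 were lower in shControl than in either culture: mt-Ta (alanine) was at 15.1, 9.20 and 1.12 CPM in conventional culture, dynamic culture and shControl, mt-Tn (asparagine) at 15.6, 10.6 and 1.28 CPM, mt-Tc (cysteine) at 7.85, 5.06 and 0.893 CPM and mt-Ty at 8.93, 3.76 and 1.15 CPM. mt-Tw, on the plus strand just before them, was at 6.69, 1.89 and 0.390 CPM. mt-Te (glutamate), on the minus strand beside mt-Nd6, was at 39.2 CPM in conventional and 23.9 CPM in dynamic culture, above each of these 5. mt-Tf, mt-Tv, mt-Ti, mt-Tq and mt-Tt, also outside the copy, had means under 1 CPM over the 5 libraries.

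Between the plain-count libraries tRNA genes differed in both directions. mt-Tp was at 47.9 against 20.1 CPM in the libraries labelled overexpression and knockdown (1.25, 1.06 to 1.44), and mt-Tc at 27.4 against 10.0 CPM (1.44, 1.18 to 1.72). Lower were mt-Tl1 (2.44 against 20.3 CPM, -3.03), mt-Te (1.07 against 7.81 CPM, -2.81) and mt-Tw (-1.27). mt-Ta, at 0.357 against 2.03 CPM (-2.36, -4.06 to -1.23), reached the mean of 1 CPM only through the library labelled knockdown. mt-Tl1, next to mt-Rnr2 and mt-Nd1, was thus lower in the library in which mt-Nd1 was also lower and mt-Rnr2 was not.

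Few of the nuclear genes that maintain, transcribe and process mitochondrial DNA, or of the nuclear regulators listed with them, differed between both cultures. The list held 56 genes, 8 of them nuclear regulators such as Hif1a, Ppargc1a and Myc. Over all genes, 6.44% were higher and 7.64% lower beyond 2-fold. Of the 56, 55 were tested between dynamic culture and conventional culture, and 1 was higher and 1 lower (median -0.063). The former was Ppargc1a, a coactivator of mitochondrial biogenesis, at 151 against 63.7 CPM (1.25), opposite to the mitochondrial mRNAs, and the latter Myc (-1.10), a growth regulator. Against shControl, 17 of 56 were lower and 2 higher in conventional culture (median -0.56), against 14.9% and 14% of all genes. The 4 lowest were Mterf1b (-2.85), a close paralog of Mterf1a and so uncertain in its value, Pnpt1 (-1.61), an RNA-degrading enzyme, Fastkd3 (-1.44), an RNA-binding protein, and Slirp (-1.42), which stabilises mitochondrial mRNAs together with Lrpprc. Both higher were Hif1a and Grsf1 (1.16), a protein of mitochondrial RNA granules.

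In dynamic culture 15 of 56 were lower and 2 higher than in shControl (median -0.48; 14.8% and 13.8% of all genes), the lowest being Myc (-2.06), Pus1 (-1.68), Pnpt1 (-1.67) and Fastkd3 (-1.51), and the higher ones Hif1a and Rrm2b (1.13). Between the plain-count libraries 12 of 54 were lower and 3 higher in that labelled overexpression (median -0.39; 14.9% and 17.7% of all genes). Rrm2b, a ribonucleotide reductase subunit induced by p53 that supplies nucleotides for mitochondrial DNA, was highest (2.54), with Hif1a and Nsun3 (1.37), and Polrmt (-1.70), Ppargc1b (-1.64), Myc (-1.59) and Pus1 (-1.49) were lowest.

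Polrmt, the mitochondrial RNA polymerase, was at 18.4, 18.0 and 41.6 CPM in conventional culture, dynamic culture and shControl and 77.7 and 23.9 CPM for the libraries labelled knockdown and overexpression. Tfam, which packages and activates mitochondrial DNA, was at 32.8, 38.9 and 66.8 and at 66.2 and 31.9 CPM. Both were lower in conventional and dynamic culture than in shControl, and lower under the overexpression label than under the knockdown label. Lrpprc, an mRNA-stabilising factor, was at 83.0, 75.2 and 135 and at 123 and 87.1 CPM. Ppargc1a was at 144 CPM in shControl and at 65.8 and 70.8 CPM in the plain-count libraries.

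Nuclear-encoded subunits of complexes I, III, IV and V differed less than the mitochondrial ones between both cultures. Of 71, 0 passed 2-fold in either direction between dynamic culture and conventional culture (median -0.18, range -0.85 to 0.95), against a median of -1.03 for the 13 mitochondrial mRNAs. Over shControl, conventional culture had 5 of 71 lower and 0 higher (median -0.24), a smaller share than the 14.9% and 14% of all genes. Those 5, named after their values were seen, were Cox7b, Ndufa4, Ndufa5, Atp5k and Atp5j. For complex IV the nuclear subunits had a median of -0.51 in that comparison, while mt-Co1, mt-Co2 and mt-Co3 had 2.82, 1.46 and 1.88. Dynamic culture had 3 of 71 lower and 0 higher than shControl, against 14.8% and 13.8% of all genes. There the median of the 71 was -0.49, with 64 below 0. It was larger in size than the 0.35 of the 13 mitochondrial mRNAs and opposite in sign. Between the plain-count libraries 0 of 71 passed 2-fold (median -0.13).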

How the data were processed

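The table of 54100 Ensembl genes was used as deposited, with 5 columns assigned by the sample descriptions and 0 left over. The deposited values of conventional culture, dynamic culture and shControl were taken as estimated counts, by their pile-up at 4 and 8, and those of the libraries labelled knockdown and overexpression as plain counts. Per the labels' protocols, libraries were strand-specific and poly(A)-selected (RNA integrity over 7.0, inserts near 300 bp, paired 150-base reads). GRCm38.p6 and mm10 stand in the submitters' processing notes beside cutadapt, HISAT2 and StringTie; the sources used here give neither counter nor annotation.

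TMM factors came from edgeR 4.0.16 over all 5 libraries, alternatives from DESeq2 1.42.0 (R 4.3.3). Log2 ratios used a prior count of 2 and exact conditional binomial (Clopper-Pearson) 95% intervals, which for estimated counts may be too narrow. With those values divided by 4, 0 calls among the 13 mRNAs were lost. That division changed only the intervals, which stayed narrow beside a log2 ratio of 1, so it could hardly remove a call. It does not show whether the intervals are wide enough. Alternatives varied scaling, prior count, filter, fold limit and the genes counted. The comparison function was tested on simulated data. Copies were found with BLASTN 2.17.0 on transcripts, since no genome sequence was used, and hits on a single nuclear chromosome were dropped. Named were all mRNAs and rRNAs, tRNA genes averaging at least 1 CPM (mt-Td, mt-Tk, mt-Tg, mt-Tr and mt-Tm were added after their values were seen), copies of at least 10 CPM in a library, and of the nuclear factors the 4 highest and 4 lowest beyond 2-fold. Prorp, on that list, matched no symbol. Members and lists, the nuclear subunits among them, were chosen with earlier results of these data known.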

Additional observations from a re-analysis of the deposited data

How the results depend on the processing

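Values are given in the order dynamic culture against conventional culture, dynamic culture against shControl, conventional culture against shControl, labelled overexpression against labelled knockdown, labelled knockdown against shControl and labelled overexpression against shControl. As reported, the median log2 ratio of the 13 mRNAs was -1.03, 0.35, 1.46, 0.69, -0.73 and -1.07, and that of their summed level -1.28, 0.68, 1.96, 0.81, -0.43 and 0.38. Scaling by the total of all values gave medians of -0.84, 0.28, 1.21, 0.78, -0.74 and -0.99 and summed ratios of -1.09, 0.61, 1.71, 0.89, -0.44 and 0.45. Scaling by the total outside mitochondrial genes and their copies gave medians of -0.98, 0.32, 1.38, 0.82, -0.77 and -0.98 and summed ratios of -1.23, 0.65, 1.88, 0.93, -0.47 and 0.46. Totals of all values moved every log2 ratio by 0.19 in the first comparison and by -0.25 in the third, and totals outside mitochondrial genes by 0.12 in the fourth. DESeq2 size factors gave medians of -1.04, 0.36, 1.48, 0.67, -0.68 and -1.05 and summed ratios of -1.29, 0.69, 1.98, 0.79, -0.39 and 0.40. TMM over the 2 libraries compared gave medians of -1.02, 0.39, 1.496, 0.69, -0.73 and -1.09 and summed ratios of -1.27, 0.72, 1.99, 0.81, -0.43 and 0.36. Adding the nuclear copies to each gene gave medians of -1.02, 0.40, 1.45, 0.69, -1.08 and -1.07 and summed ratios of -1.25, 0.60, 1.86, 0.81, -0.79 and 0.011. Keeping the 5 mRNAs outside the chromosome 1 copy, chosen after the data were seen, gave medians of -1.02, 0.86, 1.64, -0.46, -0.083 and 0.41 and summed ratios of -0.84, 0.36, 1.20, -0.18, 0.13 and -0.049, so both signs turned between the plain-count libraries and between labelled overexpression and shControl, and the summed sign between labelled knockdown and shControl; fewer genes enter by construction. The count lower in dynamic culture than in conventional culture went from 8 of 13 to 2 with totals, 5 with totals outside mitochondrial genes, 3 of the 5 outside the copy, and 12 of 13 beyond 1.5-fold. The count higher in dynamic culture than in shControl went from 1 to 2 with TMM over both libraries, 5 beyond 1.5-fold and 0 of the 5; conventional culture against shControl went from 8 to 7 with totals, 12 beyond 1.5-fold and 3 of the 5. Between the plain-count libraries 3 higher and 0 lower became 7 and 2 beyond 1.5-fold, and 0 of the 5 higher. Against shControl, 1 higher became 2 beyond 1.5-fold in labelled knockdown and 3 in labelled overexpression; among the 5, 0 were lower in labelled knockdown, and in labelled overexpression 0 were higher and 1 lower. The share of values on the 37 genes, in the order conventional culture, dynamic culture, shControl, labelled knockdown and labelled overexpression, became 12.7%, 5.99%, 3.91%, 2.88%, 5.35% for the 13 mRNAs alone, 13.6%, 6.30%, 4.08%, 2.93%, 5.45% of protein-coding values, and 15.9%, 7.59%, 5.12%, 3.03%, 5.67% with nuclear copies. A prior count of 0.5, a minimum of 10 CPM and no minimum changed none of these medians, sums or counts beyond counting error. The sums use neither prior count nor minimum, so these settings could not move them. All 13 mRNAs already passed the minimum of 1 CPM in every comparison, so dropping it could change nothing. The cause of the other changes was not tested. The planned restriction to mRNAs with no overlap and no copy could not be run, as 0 of 13 qualified. No paired analysis was possible because each group has 1 library.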
